A study of Mus musculus with 12 samples.

Results

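The thymic masses of S62A mice with splenomegaly, an enlarged spleen, were compared with the thymic lymphomas of S62A mice by sequencing of poly(A) RNA. The members were chosen by title: 3 libraries titled as splenomegaly and 3 titled as thymic lymphoma, 6 of the 12 libraries of the series. Every library was labelled as thymic tissue. The splenomegaly masses were labelled as T and B lymphocytes that express ectopic MYCS62A and endogenous MYC. The S62A lymphomas were labelled as T lymphocytes with ectopic MYCS62A only, so the cell label, the disease and the state of endogenous MYC differ together between both groups and cannot be told apart. The other libraries were 3 lymphomas with ectopic MYCT58A only and 3 control thymi with endogenous MYC only, both labelled as T lymphocytes; they entered the fit, and the control gives the background level. In MYCS62A an alanine stands in place of a serine whose phosphorylation, together with that of a neighbouring threonine replaced in MYCT58A, governs turnover of the protein. How the ectopic MYC was delivered, which promoter drove it, and the age, sex and strain of the mice are not given in the labels, nor is it said whether each library is a mouse of its own. The p-values therefore measure how far libraries differ, and some of that spread may be technical.

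MYC is a transcription factor that pairs with MAX and binds the E-box, and its best known targets are genes for ribosome assembly, nucleotide synthesis and cell division. The thymus normally holds mostly immature T cells on an epithelial scaffold, with few B cells. Mature B cells that meet antigen form germinal centres, in which antibody genes are mutated and selected, and then become plasma cells, whose enlarged endoplasmic reticulum folds and exports antibody.

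Depth, as the sum of counted reads, was 19905444, 9577373 and 14890182 for splenomegaly masses 1 to 3, against 16258508, 14172274 and 15409907 for S62A lymphomas 1 to 3. Over the 6 libraries, the first principal component held 71.2% of the variance and separated both groups, and the second, with 12.2%, spread the lymphomas. Pearson's r of log2 CPM, counts relative to the TMM-scaled library total, was 0.960 to 0.971 within the splenomegaly masses and 0.929 to 0.959 within the lymphomas, against 0.803 to 0.832 between them; these are correlations across genes, which are not independent replicates. The biological coefficient of variation was 28% in the splenomegaly masses and 44.9% in the lymphomas. Of the 6 libraries, splenomegaly mass 2 and S62A lymphomas 1 and 2 held more reads of the Y-linked Ddx3y than of Xist, the RNA of the inactive X chromosome, and the other 3 held more of Xist. Xist stood at 779.9, 37.9 and 1013 CPM in the splenomegaly masses and at 1.15, 0.934 and 2258 CPM in the lymphomas, and Ddx3y at 0.106, 122 and 10.2 CPM in the splenomegaly masses and 228, 201 and 1.73 CPM in the lymphomas. All 12 libraries held reads of both genes. The rarer of both had 146 to 360 reads in splenomegaly masses 2 and 3, 2 to 26 reads in splenomegaly mass 1 and the S62A lymphomas, 108 to 1161 reads in the T58A lymphomas and 53 to 95 reads in control thymus. The labels give no sex. Whether a library holds RNA of more than 1 mouse or goes against its label was not tested, so every group value rests on the labels as given. A fit with a term for this split called 3847 genes higher and 4299 lower, against 4002 and 4470 without it.

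Of 15606 genes tested with edgeR's quasi-likelihood test, 8472 (54.3%) differed at a Benjamini-Hochberg adjusted p under 0.05. The level was higher in the splenomegaly masses for 4002 genes (25.6%) and lower for 4470 (28.6%), and the median log2 fold change over all genes was -0.07. For 9071 genes (58.1%) no splenomegaly library fell within the range of the lymphomas or the reverse. Among the called genes, 3190 (20.4%) were at least 2-fold higher and 2192 (14%) at least 2-fold lower, and 1025 were at least 8-fold higher against 553 at least 8-fold lower. Counts for gene lists below are to be read against these shares. Values per gene are CPM. A gene is said to have risen or fallen by a log2 fold change of the splenomegaly masses over the S62A lymphomas, and an error after ± is the standard error for such changes. In bulk tissue, fewer cells of a type and less RNA per cell cannot be told apart.

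**Figure D1:**
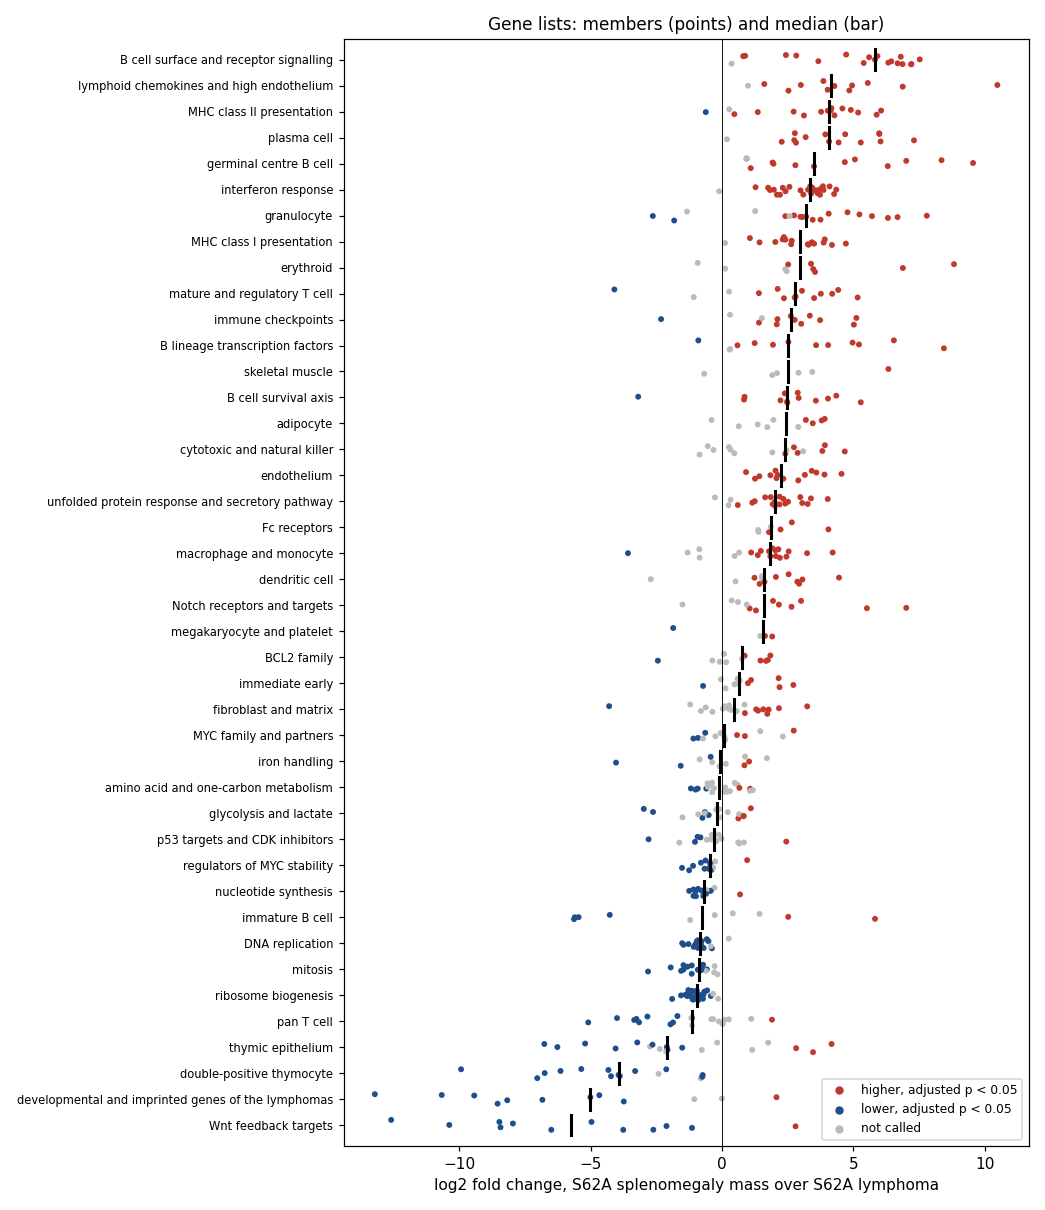
Log2 fold change (horizontal axis) of the splenomegaly masses over the S62A lymphomas for the measured members of 42 gene lists (rows, points), with the list median as a black bar and colour for calls at an adjusted p under 0.05. B cell surface genes have the highest median, 5.82, and feedback targets of the Wnt pathway the lowest, -5.73.

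Genes of B lymphocytes were higher throughout the splenomegaly masses. Of 19 genes of the B cell surface and receptor signalling, 18 rose and none fell, with a median log2 fold change of 5.82. Ms4a1, which encodes the B cell surface protein CD20, had 272, 494 and 374 CPM in the splenomegaly masses, against 0.891, 2.59 and 6.27 CPM in the S62A lymphomas (log2 fold change 6.87 ± 1.01, adjusted p = 0.000234). Every splenomegaly library was far above every lymphoma, and control thymus held 5.02 ± 0.394 CPM (SD, n = 3). Cd79a, a signalling chain of the B cell receptor, had 269, 353 and 345 CPM in the masses against 0.954, 5.39 and 4.8 CPM in the lymphomas (log2 fold change 6.44 ± 0.95, adjusted p = 0.00023). The groups did not overlap for Cd79a either. Cd22, Fcer2a, Cr2, Fcrla, Bank1 and Cxcr5 rose by 5.82, 7.53, 6.80, 6.68, 5.92 and 5.6. Ralgps2 was the member that did not pass the test. In the T58A lymphomas Ms4a1 was at 31.9 ± 28.8 CPM, and 6 of the 19 genes were lower and none higher in the S62A lymphomas than there; of all genes 2.29% were lower and 0.859% higher, 3.15% together.

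The transcription factors that set B cell identity followed. Of 13, 10 rose, Tcf3 fell, and Pou2af1 and Ikzf3 were not called (without lymphoma 1 the adjusted p of Ikzf3 was 0.00492), with a median of 2.53. Pax5, which commits a progenitor to the B lineage, had 23.1, 26.9 and 28.9 CPM in the splenomegaly masses, against 0, 0.216 and 0 CPM in the lymphomas (log2 fold change 8.45 ± 0.99, adjusted p = 5.52e-05). With 3 reads over the 3 lymphomas, its depth-scaled ratio of reads was 385 (95% interval 131 to 1870.3), 249.5 without lymphoma 1 and 256 without lymphoma 3. Spib had 279, 353 and 336 CPM in the masses against 3.44, 3.59 and 3.33 CPM in the lymphomas, with no overlap (log2 fold change 6.54 ± 0.74, adjusted p = 4.41e-05). Bach2, Irf8 and Ebf1 rose by 4.97, 4.04 and 3.58, and Tcf3, which encodes the E proteins that thymocytes also use, fell by 0.90. Genes of immature B cells did not move together: of 10 measured, Vpreb3 and Erg rose and Sox4, Lef1, Myb and Cecr2 fell. Sox4, Lef1 and Myb are also genes of immature thymocytes. The surrogate light chain genes were near 0 in both groups: Vpreb1 had 0.318, 0 and 0.842 CPM in the splenomegaly masses and 0.70, 0.287 and 0.467 CPM in the lymphomas, while Igll1 and Vpreb2 did not pass the filter on low counts.

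Germinal centre genes rose in 12 of 13 cases, with a median of 3.5; Mef2b was not called, except without lymphoma 1 (adjusted p = 0.0341). Il21, the cytokine by which follicular helper T cells drive germinal centres, had 26.6, 36.2 and 31.6 CPM in the splenomegaly masses, against 0.255, 0 and 0 CPM in the lymphomas (log2 fold change 8.35 ± 0.99, adjusted p = 5.56e-05). Gpr183, which guides B cells within and around follicles, and Cd86, a costimulatory ligand, rose by 4.67 and 3.5. Il21, Gpr183 and Cd86 are not particular to germinal centre B cells. Bcl6, the repressor that programmes germinal centre B cells, changed less: it had 99.9, 71.7 and 87.8 CPM in the masses against 49.5, 63.1 and 23 CPM in the lymphomas (log2 fold change 0.94 ± 0.30, adjusted p = 0.0221), although its libraries did not overlap, and the adjusted p was 0.0605 without splenomegaly mass 1.

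All 13 genes of the axis that keeps B cells alive were called, 12 higher and Il6 lower, with a median of 2.49. Summed levels were 871 to 1128 CPM in the splenomegaly masses, 167 to 307 CPM in the lymphomas and 796 to 859 CPM in control thymus. Relative to control thymus, 8 of the 13 were higher and none lower in the splenomegaly masses (22.9% and 26.3% of all genes). In the S62A lymphomas none was higher and 7 were lower (21.9% and 22.2% of all genes). Tnfsf13b, which encodes the survival factor BAFF, had 86.3, 36.7 and 33.7 CPM in the splenomegaly masses and 3.69, 3.52 and 2.33 CPM in the lymphomas (log2 fold change 4.04 ± 0.41, adjusted p = 2.43e-05). Tnfrsf17, the receptor BCMA of plasma cells, rose by 5.28, Icosl by 2.39 and Nfkb2, a subunit of the alternative NF-kappaB pathway, by 2.49. Il6 was near the limit of detection, with 0.212, 0 and 0 CPM in the masses against 0.636, 1.15 and 0.733 CPM in the lymphomas, and the adjusted p was 0.0537 without splenomegaly mass 3.

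Plasma cell genes included the gene with the most reads in the splenomegaly masses. Of 15, 14 rose and none fell, with a median of 4.08, and Edem1 was not called. Jchain, which joins antibody units into polymers, had 12668, 17044 and 19738 CPM in the splenomegaly masses. It held 1.20%, 1.69% and 1.89% of the reads counted in genes, with 1 transcript per gene. No other gene had more counted reads in any splenomegaly mass. The lymphomas held 31.9, 275 and 448 CPM, with library 1 far below the others, and control thymus 73.6 ± 8.57 CPM (log2 fold change 6.03 ± 1.01, adjusted p = 0.000528). Per transcript length, the level of Jchain was 8232 ± 1822 FPKM in the splenomegaly masses and 127 ± 105 FPKM in the lymphomas (SD, n = 3 each). Mzb1, a chaperone of antibody secretion, had 1685, 1757 and 2981 CPM in the masses against 0.636, 18.6 and 21.4 CPM in the lymphomas (log2 fold change 7.31 ± 1.32, adjusted p = 0.000823). Xbp1, the transcription factor that enlarges the secretory apparatus, had 2232, 2604 and 3843 CPM in the masses against 92, 116 and 128 CPM in the lymphomas (log2 fold change 4.69 ± 0.44, adjusted p = 1.31e-05). Splenomegaly mass 3 was the highest and mass 1 the lowest for all 3 genes. Prdm1, the repressor that ends the B cell programme, had 85.8, 125 and 141 CPM in the masses against 12.2, 12.7 and 13.7 CPM in the lymphomas (log2 fold change 3.19 ± 0.30, adjusted p = 1.35e-05). Creld2, Sdf2l1 and Sdc1, the last known as CD138, rose by 3.93, 2.75 and 2.27.

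The unfolded protein response and secretory pathway rose in 18 of 21 genes, with a median of 2.02. Hspa5, which encodes the chaperone BiP, had 2679.9, 3865 and 4373 CPM in the splenomegaly masses and 679, 630 and 749 CPM in the lymphomas (log2 fold change 2.41 ± 0.19, adjusted p = 5.85e-06). Pdia4, a protein disulphide isomerase, had 1219.8, 1377 and 1749 CPM in the masses against 119, 149.8 and 147 CPM in the lymphomas (log2 fold change 3.39 ± 0.26, adjusted p = 4.53e-06). Dnajb9, Atf6 and Dnajb11 rose by 2.98, 2.19 and 2.01. The members that were not called were Ddit3, Atf4 and Ern1, which encode the stress factor CHOP, the factor at the head of the amino acid response, and the sensor that splices Xbp1. The plasma cell list moved with these genes, with summed levels of 20583 to 32793 CPM in the splenomegaly masses and 1917 to 3209 CPM in the lymphomas, and its part in their rise was not tested. Of 16 promoters of this list in the RefSeq table, 1 (6.25%) held the letters TGACGTGG on either strand, against 0.676% of all promoters.

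**Figure D2:**
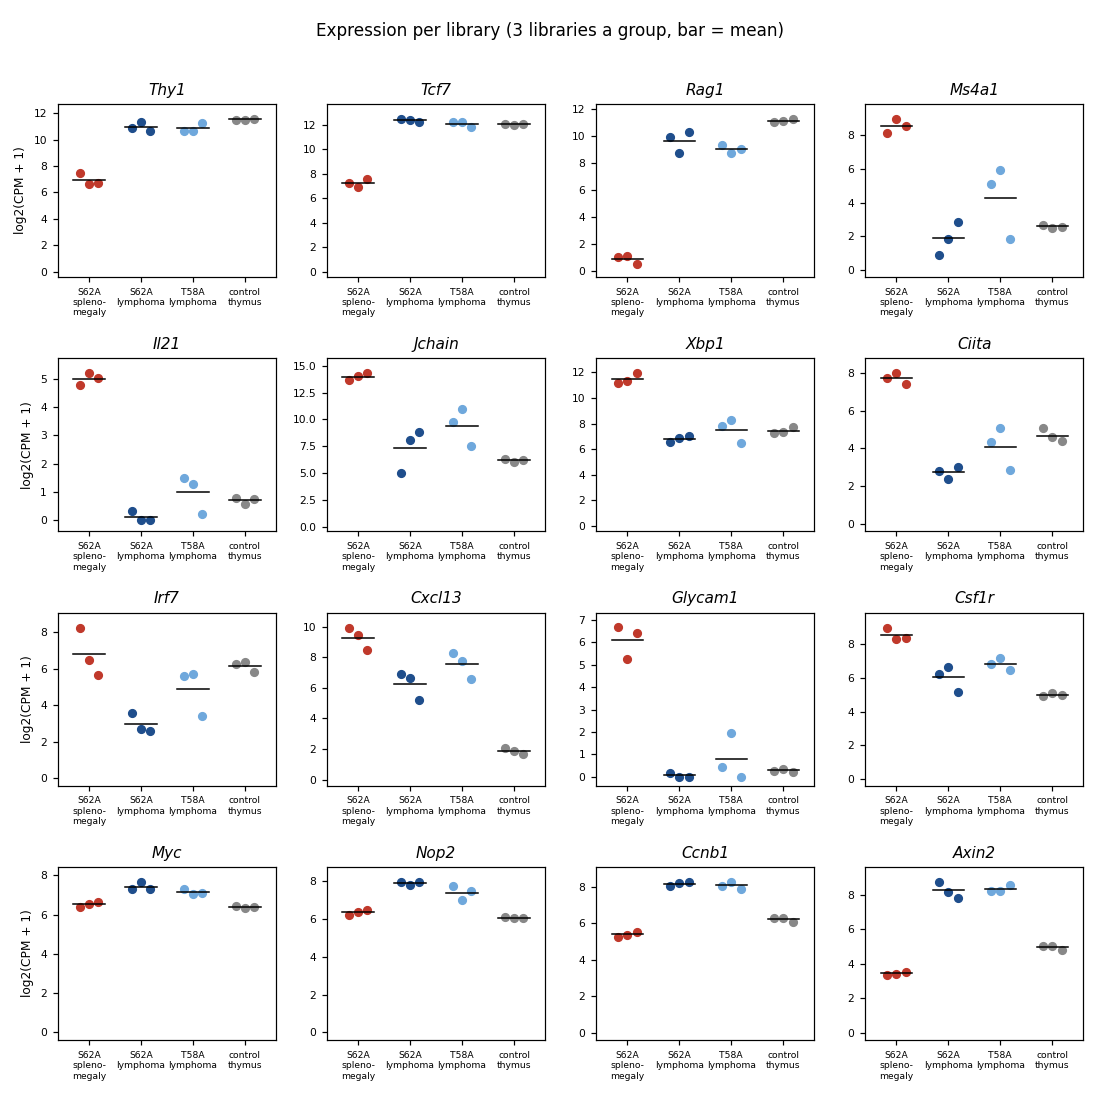
Expression of 16 genes as log2(CPM + 1) on the vertical axis, with 1 point per library and a bar at the group mean, in splenomegaly masses, S62A lymphomas, T58A lymphomas and control thymus from left to right. Splenomegaly masses stand above S62A lymphomas in the panels from Ms4a1 to Csf1r and below them for Thy1, Tcf7, Rag1, Myc, Nop2, Ccnb1 and Axin2.

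Antigen presentation on MHC class II, the task of B cells, dendritic cells and macrophages, was higher. Of 16 genes 14 rose, with a median of 4.08; Rfxap, a subunit of the factor that binds class II promoters, fell by 0.61 and Rfxank was not called. H2-Aa, a class II chain, had 4858, 3151 and 2574 CPM in the splenomegaly masses and 154, 220.1 and 275 CPM in the lymphomas (log2 fold change 4.03 ± 0.48, adjusted p = 5.78e-05). Control thymus lay between, at 641 ± 75.6 CPM. Ciita, the master regulator of class II genes, had 209, 251 and 168 CPM in the masses against 5.98, 4.17 and 7.13 CPM in the lymphomas (log2 fold change 5.18 ± 0.52, adjusted p = 2.20e-05). H2-DMb2 and H2-Oa, which control peptide loading, rose by 6.05 and 4.90. Summed over the list, levels were 16753 to 27760 CPM in the splenomegaly masses and 1248 to 1758 CPM in the lymphomas, against 2926 to 3687 CPM in control thymus. The B cell surface list was also higher in the splenomegaly masses, at 4738 to 5579 CPM against 633 to 1295 CPM in the lymphomas. In control thymus it summed to 422 to 450 CPM, below the lymphomas, whereas the class II sum was above them. Of its 19 genes, 4 were higher and 4 lower in the S62A lymphomas than in control thymus. Its part in the class II levels was not tested.

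Class I presentation, which most nucleated cells carry out, rose in 17 of 18 genes with a median of 2.96, and Canx was not called. B2m, the light chain of every class I molecule, had 5659, 4921 and 5044 CPM in the splenomegaly masses, against 512, 639 and 471 CPM in the lymphomas (log2 fold change 3.27 ± 0.35, adjusted p = 3.30e-05). In control thymus B2m was at 1004 ± 89.6 CPM, above the lymphomas (log2 fold change -0.89 ± 0.33, adjusted p = 0.0444 for S62A lymphoma over control). Nlrc5, the activator of class I genes, had 204, 239 and 223 CPM in the masses against 16.6, 7.83 and 12.1 CPM in the lymphomas (log2 fold change 4.18 ± 0.44, adjusted p = 2.90e-05). Psmb9 and Psmb8, subunits of the immunoproteasome, rose by 3.91 and 2.63, and Tap1 and Tap2, which carry peptides into the endoplasmic reticulum, by 3.42 and 2.42. The class I genes of the H2-Q and H2-T regions have near-identical copies, so their single values are uncertain.

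Genes of the interferon response rose in 26 of 27 cases, with a median of 3.36; Ifit2 was not called. Irf7 and Isg15, which respond mainly to type I interferon, varied among the splenomegaly masses: Irf7 had 303, 88.1 and 50.2 CPM in the splenomegaly masses, against 11.1, 5.46 and 5.07 CPM in the lymphomas (log2 fold change 4.35 ± 0.77, adjusted p = 0.000739). Isg15 had 54.3, 23.9 and 12.8 CPM in the splenomegaly masses, against 2.55, 4.24 and 1.53 CPM in the lymphomas (log2 fold change 3.45 ± 0.68, adjusted p = 0.00144). Library 1 was highest for both. Igtp, a GTPase induced by interferon gamma, was even, with 394, 461 and 389 CPM in the masses against 44.5, 42.9 and 27.5 CPM in the lymphomas (log2 fold change 3.44 ± 0.30, adjusted p = 8.78e-06). Ifng itself had 9.76, 10.7 and 8.56 CPM in the splenomegaly masses and 1.08, 0.0718 and 0.733 CPM in the lymphomas (log2 fold change 3.92 ± 0.81, adjusted p = 0.00191). Relative to control thymus, 12 of the 27 genes were higher and 1 lower in the splenomegaly masses (22.9% and 26.3% of all genes, and 49.2% in either direction), and none was higher and 21 were lower in the S62A lymphomas (21.9% and 22.2% of all genes, and 44.1% in either direction); both comparisons use the same controls. Macrophage genes, which also respond to interferon, were higher in the splenomegaly masses too. They summed to 5365 to 9290 CPM in the masses and 2251 to 3484 CPM in the S62A lymphomas. In control thymus they summed to 840 to 981 CPM, below the lymphomas. The interferon list went the other way, at 465 to 486 CPM in the S62A lymphomas and 1197 to 1401 CPM in control thymus. The part of macrophages in the interferon levels was not tested.

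The promoters of Isg15 and Igtp are printed because both genes rose in this list and hold the letters of the interferon-stimulated response element searched for, GAAANNGAA on either strand. Sequences are from RefSeq on GRCm38.p6, 250 bases before to 50 after the start of the gene, with matches in capitals; matches in Isg15 overlap. Of the 27 genes 22 matched the table, with 26 promoters, of which 15 (57.7%) held the motif, against 8.56% of all 32851 promoters of that length. A match describes the letters and is not evidence of a bound site.
Isg15 at chr4:156200769-156201068 on the minus strand: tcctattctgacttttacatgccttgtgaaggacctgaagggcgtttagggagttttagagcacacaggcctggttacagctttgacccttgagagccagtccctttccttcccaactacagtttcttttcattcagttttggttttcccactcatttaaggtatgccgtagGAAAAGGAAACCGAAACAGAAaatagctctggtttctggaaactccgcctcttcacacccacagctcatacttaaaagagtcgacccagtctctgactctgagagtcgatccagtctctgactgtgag
Igtp at chr11:58199306-58199605 on the plus strand: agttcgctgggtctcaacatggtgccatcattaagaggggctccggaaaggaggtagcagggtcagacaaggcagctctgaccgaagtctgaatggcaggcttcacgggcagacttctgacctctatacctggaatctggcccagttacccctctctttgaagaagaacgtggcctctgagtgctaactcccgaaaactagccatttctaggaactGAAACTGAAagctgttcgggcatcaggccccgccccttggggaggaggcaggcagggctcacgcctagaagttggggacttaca

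Chemokines of lymphoid tissue and genes of the high endothelium, through which lymphocytes enter lymph nodes, rose in 11 of 12 measured genes with a median of 4.15, and Ackr3 was not called, except without lymphoma 3 (adjusted p = 0.0314). Glycam1, a sulphated mucin of that endothelium, had the largest rise of the named genes: 101, 37.2 and 84.6 CPM in the splenomegaly masses, against 0.127, 0 and 0 CPM in the lymphomas (log2 fold change 10.48 ± 1.4, adjusted p = 0.00012). The lymphomas held 2 reads together, which gives a ratio of 1813 (95% interval 501 to 14973). Without lymphoma 1, which holds them, it was at least 783-fold higher, and the ratio was 1204 without lymphoma 3. Cxcl13, which draws B cells to follicles, had 982, 701 and 360.3 CPM in the masses against 118, 100.3 and 36.3 CPM in the lymphomas (log2 fold change 3.0 ± 0.53, adjusted p = 0.00072). Ltb, the lymphotoxin that maintains lymphoid stroma, rose by 4.84, Cxcl9, induced by interferon gamma, by 4.02, and Cxcl12 by 3.86. Ccl19 and Ccl21a, which draw T cells, were listed at 0 reads in all 12 libraries; both have near-identical copies in the mouse genome.

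All 14 endothelial genes rose, with a median of 2.23 and summed levels of 735 to 1192 CPM in the splenomegaly masses, against 211 to 285 CPM in the lymphomas. Plvap, a protein of fenestrated capillaries, had 212, 162 and 179 CPM in the masses against 13.9, 17.5 and 20.3 CPM in the lymphomas (log2 fold change 3.42 ± 0.22, adjusted p = 2.10e-06). Vwf, Flt4 and Kdr rose by 3.59, 3.90 and 2.90, and Pecam1 by 0.92. Fibroblast and matrix genes divided: of 20, 8 rose, Fbln1 fell by 4.29 and 11 were not called. Col1a1 had 96.1, 90.2 and 57.8 CPM in the splenomegaly masses and 40.7, 89.8 and 244 CPM in the lymphomas, with overlap (log2 fold change -0.62 ± 0.69, adjusted p = 0.468). Tgfbi, Pdgfra and Bgn rose by 3.24, 2.17 and 1.78.

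Of 20 macrophage and monocyte genes, 14 rose and Itgam fell, with a median of 1.82. Csf1r, the receptor macrophages need to survive, had 510.4, 318 and 331 CPM in the splenomegaly masses and 75.9, 101 and 35 CPM in the lymphomas (log2 fold change 2.45 ± 0.34, adjusted p = 0.000164). C1qa, a complement chain made by tissue macrophages, had 1794, 812 and 643 CPM in the masses against 236, 327 and 222 CPM in the lymphomas (log2 fold change 2.05 ± 0.34, adjusted p = 0.000478). Library 1 was the highest splenomegaly mass for both, and no library of either gene overlapped. Itgam, the integrin chain CD11b, went the other way, with 112, 65.6 and 60.5 CPM in the splenomegaly masses against 438, 891 and 1514 CPM in the lymphomas (log2 fold change -3.58 ± 0.48, adjusted p = 0.000123), and control thymus at 11.9 ± 0.618 CPM. Adgre1, which encodes F4/80, overlapped, at 238, 74.8 and 49.7 CPM in the masses against 57.6, 166 and 36.5 CPM in the lymphomas (log2 fold change 0.48 ± 0.72, adjusted p = 0.591). Dendritic cell genes rose in 9 of 13 cases and none fell, with Flt3 up by 2.87 and Itgax by 2.94. Of 7 Fc receptor genes measured, 4 rose, Fcrl1 and Fcgr2b among them by 4.05 and 2.66. Fcgr4 varied most of these, with 1446, 291 and 133 CPM in the splenomegaly masses and 238, 458 and 24.1 CPM in the lymphomas (log2 fold change 1.38 ± 1.11, adjusted p = 0.309).

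Granulocyte genes were at low levels in both groups. Of 19, 14 rose and Lcn2 and Mmp9 fell (the adjusted p was 0.0568 to 0.204 without splenomegaly mass 1 or 2 or lymphoma 1 for Mmp9), with summed levels of 141 to 355 CPM in the splenomegaly masses, 22.5 to 83.6 CPM in the lymphomas and 182 to 288 CPM in control thymus. In a fit to the 6 libraries alone, 11 of them passed the filter, of which 6 rose and 1 fell. S100a8 had 9.71, 3.79 and 17.9 CPM in the splenomegaly masses and 0.636, 0.934 and 2.4 CPM in the lymphomas (log2 fold change 2.99 ± 0.66, adjusted p = 0.00296). Between the lymphoma groups, 10 of the 19 genes were lower in S62A than in T58A lymphomas, against 2.29% of all genes. Erythroid genes rose in 6 of 10 cases, and Hbb-bt stood at 335, 28.3 and 19.4 CPM in the splenomegaly masses, with library 1 far above the others, against 2.48, 14 and 5.47 CPM in the lymphomas (log2 fold change 4.13 ± 1.09, adjusted p = 0.00793); the adjusted p was 0.0649 without splenomegaly mass 1. Globin genes have near-identical copies, and their single values are uncertain. Adipocyte genes rose in 4 of 10 cases, and in 2 without splenomegaly mass 1 or lymphoma 1 and 1 without lymphoma 2. Of 4 megakaryocyte and platelet genes measured, 2 rose and Pf4 fell. None rose without splenomegaly mass 1 or lymphoma 1 and 1 rose without lymphoma 2, and for Pf4 the adjusted p was 0.0553 to 0.13 without splenomegaly mass 1, 2 or 3 or lymphoma 1 or 2. Of 6 genes of skeletal muscle Tnnt3 rose. That list summed to 83.7 CPM in splenomegaly mass 1, 5.05 and 8.91 CPM in masses 2 and 3 and 10.8 to 14.5 CPM in the lymphomas. Its median was 2.5 with all libraries and -1.67 without splenomegaly mass 1, with 1 gene risen and 1 fallen, while 2 genes rose without mass 2 and 3 without mass 3. Klf1, the erythroid transcription factor, was near 0 at 0.424, 0.421 and 0.772 CPM in the splenomegaly masses and 1.59, 1.51 and 0 CPM in the lymphomas.

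The T cell label was checked next, since both groups are labelled as holding T cells. Genes common to all T cells were present in both, and summed to 1405 to 1544 CPM in the splenomegaly masses, 8532 to 10894 CPM in the S62A lymphomas and 15622 to 15703 CPM in control thymus. Of 20 such genes, 10 fell, Cd2 rose and 9 were not called, with a median of -1.15. Those not called were Cd3d, Cd3e, Cd3g, Cd247, Cd5, Cd6, Cd28, Trat1 and Skap1. Tcf7 and Thy1 together made up most of the summed level in each lymphoma, so the sums mainly reflect these genes. Cd3e, a chain of the T cell receptor complex, had 90.2, 94.7 and 90.3 CPM in the splenomegaly masses and 196, 146 and 21.7 CPM in the lymphomas (log2 fold change -0.40 ± 0.52, adjusted p = 0.531). Lymphoma 3 lay below the splenomegaly masses and the other 2 above them, and without lymphoma 3 the gene was lower (log2 fold change -0.90, adjusted p = 0.000709). The kinase gene Lck had 167, 135 and 159 CPM in the masses against 610.4, 585 and 479 CPM in the lymphomas, without overlap (log2 fold change -1.86 ± 0.15, adjusted p = 5.85e-06). Thy1, a surface protein of thymocytes, had 178, 97.4 and 102 CPM in the masses against 1851, 2563 and 1594 CPM in the lymphomas (log2 fold change -3.99 ± 0.30, adjusted p = 3.99e-06). Tcf7, which encodes the factor TCF1 needed for T cell development, had 149, 122 and 189 CPM in the masses against 5597, 5393 and 4641 CPM in the lymphomas (log2 fold change -5.09 ± 0.21, adjusted p = 2.01e-07). Bcl11b, a factor that commits cells to the T lineage, fell by 3.25. Cd2, an adhesion receptor shared by T and B cells of mice, had 141, 156 and 149 CPM in the masses against 50.3, 62 and 7.0 CPM in the lymphomas (log2 fold change 1.9 ± 0.66, adjusted p = 0.0291), and the adjusted p was 0.0509 to 0.060 without splenomegaly mass 1, 2 or 3.

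Double-positive thymocytes, the immature cells that carry CD4 and CD8 and rearrange receptor genes, make up most of a normal thymus. Of 15 of their genes, 13 fell and none rose, with a median of -3.93. Rag1, a subunit of the recombinase that cuts receptor genes, had 1.06, 1.16 and 0.491 CPM in the splenomegaly masses, against 965, 417 and 1243 CPM in the lymphomas and 2238 ± 167 CPM in control thymus (log2 fold change -9.93 ± 0.51, adjusted p = 4.34e-07). Cd4 had 245, 274 and 273 CPM in the masses against 1633, 1296 and 508 CPM in the lymphomas (log2 fold change -2.12 ± 0.33, adjusted p = 0.000303). Cd8a had 63.1, 37.9 and 23.4 CPM in the masses against 386, 1359 and 95 CPM in the lymphomas (log2 fold change -3.88 ± 0.77, adjusted p = 0.00153). Cd8b1, Themis and Endou fell by 5.35, 4.22 and 3.30. Ptcra, the chain of the receptor that precedes the T cell receptor, was near 0 in both groups, at 0, 0.105 and 0.0702 CPM in the splenomegaly masses and 0.0636, 0.0718 and 0.133 CPM in the lymphomas, against 57.6 ± 5.73 CPM in control thymus.

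Genes of mature and regulatory T cells moved opposite to those of thymocytes: 11 of 14 rose and Il2ra fell, with a median of 2.79. S1pr1, which lets T cells leave the thymus, had 129, 165 and 121 CPM in the splenomegaly masses and 9.67, 11.1 and 15.7 CPM in the lymphomas (log2 fold change 3.51 ± 0.29, adjusted p = 7.08e-06). Cxcr3, Icos, Ikzf2 and Ccr7 rose by 5.16, 4.42, 2.80 and 2.36. Cxcr3 is also found on B cells. Foxp3, the factor of regulatory T cells, had 30, 20.9 and 28.1 CPM in the masses against 17.2, 24.2 and 24.1 CPM in the lymphomas, with overlap (log2 fold change 0.27 ± 0.22, adjusted p = 0.316). Il2ra, the interleukin 2 receptor chain CD25, had 9.34, 7.99 and 14.5 CPM in the masses against 3.88, 41.3 and 500.2 CPM in the lymphomas (log2 fold change -4.09 ± 1.31, adjusted p = 0.0206). The groups overlapped for Il2ra, and the adjusted p was 0.0519 to 0.311 without splenomegaly mass 1, 2 or 3 or lymphoma 3. It was 0.0522 in a fit to the 6 libraries alone. With limma on FPKM it was 0.163 and 0.199, with log2 fold changes of -1.98 and -2.08.

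Immune checkpoint genes rose in 10 of 13 cases, with a median of 2.62, and Cd160 fell by 2.32. Btla, an inhibitory receptor of B and T cells, had 188, 255 and 252 CPM in the splenomegaly masses and 5.41, 6.54 and 8.07 CPM in the lymphomas (log2 fold change 5.12 ± 0.65, adjusted p = 8.98e-05). Lag3, Havcr2 and Pdcd1, the receptor PD-1, rose by 3.74, 3.34 and 2.77, and Cd274, its ligand, by 1.41. Of 15 cytotoxic and natural killer genes 6 rose, including the chemokine gene Ccl5, with 239.6, 93.1 and 129 CPM in the masses against 5.47, 4.53 and 8.07 CPM in the lymphomas (log2 fold change 4.67 ± 0.81, adjusted p = 0.000653), and Gzmb, a granzyme, by 3.82. Prf1, the pore of killer cells, overlapped, with 21.1, 20.2 and 16.9 CPM in the masses against 48.6, 17.2 and 7.07 CPM in the lymphomas (log2 fold change -0.32 ± 0.51, adjusted p = 0.611). This count was 3 without splenomegaly mass 1, lymphoma 2 or lymphoma 3 and 10 without lymphoma 1.

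**Figure D3:**
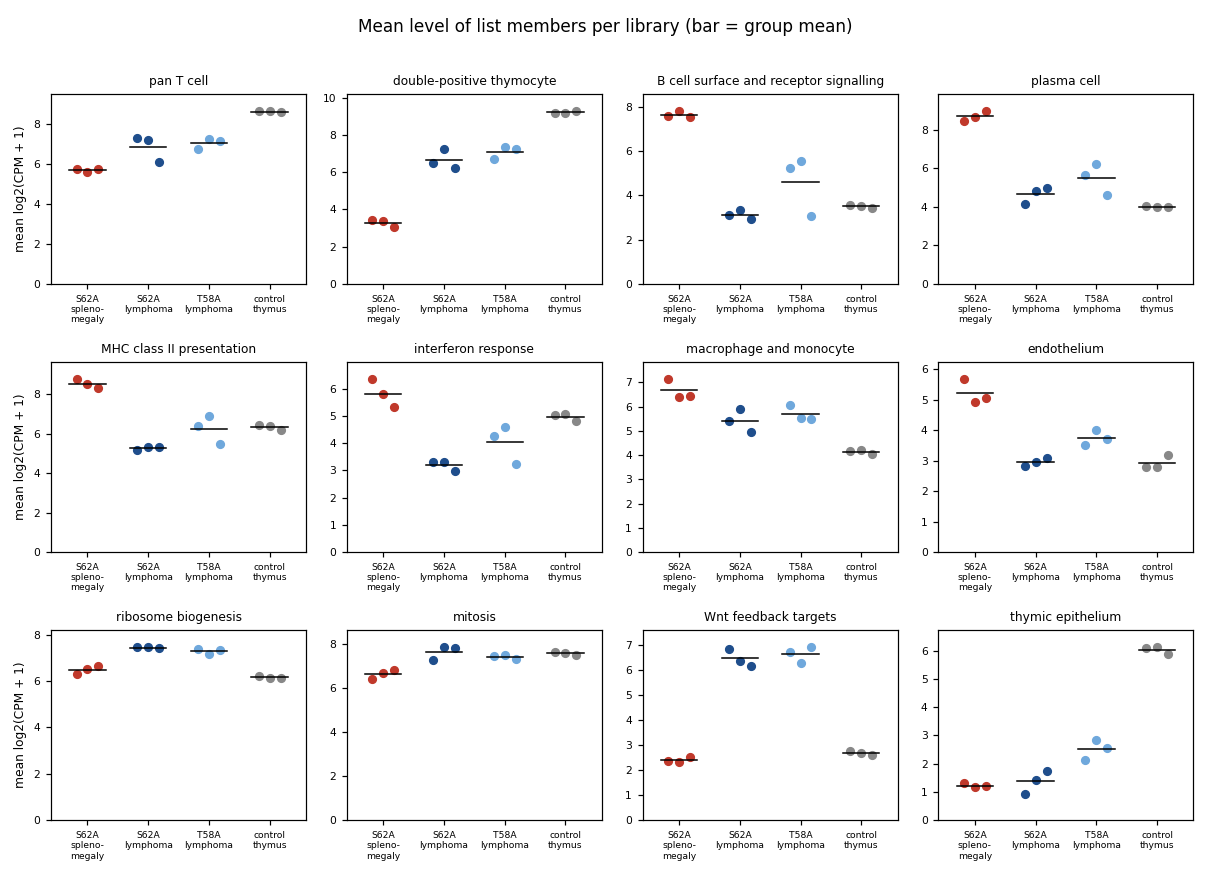
Mean log2(CPM + 1) of the members of 12 gene lists (vertical axis), with 1 point per library and a bar at the group mean, in splenomegaly masses, S62A lymphomas, T58A lymphomas and control thymus from left to right. The splenomegaly masses are highest for B cell, plasma cell, MHC class II and interferon genes and lowest for thymocyte, mitosis and Wnt feedback genes.

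Genes of thymic epithelium were low in both groups. The 19 genes summed to 96.6 to 105 CPM in the splenomegaly masses and 25 to 66.4 CPM in the lymphomas, against 3413 to 3735 CPM in control thymus. Foxn1, the factor that makes thymic epithelium, had 0.159, 0 and 0 CPM in the splenomegaly masses and 0.0636, 0 and 1.07 CPM in the lymphomas (log2 fold change -2.37 ± 1.38, adjusted p = 0.166). Krt5, a keratin of the medulla, had 0.106, 0.105 and 0.0702 CPM in the splenomegaly masses and 3.5, 12.8 and 16.6 CPM in the lymphomas (log2 fold change -6.76 ± 0.74, adjusted p = 3.45e-05). Prss16, a protease of cortical epithelium, went the other way with 21.6, 32 and 25.3 CPM in the masses against 0.764, 0.503 and 3.07 CPM in the lymphomas (log2 fold change 4.17 ± 0.56, adjusted p = 0.000129), both far under the 1104 ± 16.8 CPM of control thymus. In all 9 of the 19 fell and Prss16, Epcam and Dll4 rose; in a fit to the 6 libraries alone 12 passed the filter, of which 5 fell.

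Myc itself (chr15:61816896-61821916 on the mm9 build, plus strand) was lower in the splenomegaly masses, with 84.2, 91.6 and 99.98 CPM, against 158, 203 and 157 CPM in the S62A lymphomas (log2 fold change -0.91 ± 0.13, adjusted p = 0.000172). The groups did not overlap, and the splenomegaly masses were near the control thymus, at 82.8 ± 2.82 CPM (log2 fold change 0.15 ± 0.13, adjusted p = 0.347 for splenomegaly over control). Whether the ectopic MYC RNA is counted under this gene is not given in the sources used here, so the values do not separate ectopic from endogenous MYC. Of 13 genes of the MYC family and its partners 3 rose, 3 fell and 7 were not called. Max had 184, 183 and 181 CPM in the splenomegaly masses and 161, 159 and 183 CPM in the lymphomas, with overlap (log2 fold change 0.13 ± 0.09, adjusted p = 0.258). DESeq2 called Max higher (log2 fold change 0.20, adjusted p = 0.0248). Mycl rose by 2.73 to a low level, 18.5, 15 and 8.84 CPM in the masses against 1.4, 1.29 and 3.67 CPM in the lymphomas, and Mga, a repressor of E-box genes, fell by 1.09. Among 15 regulators of MYC stability 11 fell and Fbxw7, the ubiquitin ligase that recognises phosphorylated MYC, rose. Fbxw7 had 75, 117 and 148 CPM in the masses against 52.2, 55.2 and 67.3 CPM in the lymphomas (log2 fold change 0.96 ± 0.21, adjusted p = 0.0024). Skp2, another ligase of MYC, and Gsk3a, a kinase of the site next to the mutated serine, fell by 1.25 and 1.1.

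Genes for ribosome assembly were lower in the splenomegaly masses as a group. Of 29, 27 fell and none rose, with a median of -0.96, against -0.07 over all genes. Summed levels were 3333 to 4421 CPM in the splenomegaly masses and 7343 to 7835 CPM in the S62A lymphomas, against 3045 to 3277 CPM in control thymus. Nop2, a methylase of ribosomal RNA, had 73, 79.9 and 88.5 CPM in the masses against 246, 219.99 and 244 CPM in the lymphomas (log2 fold change -1.56 ± 0.17, adjusted p = 3.23e-05). Tsr1, which acts in maturation of the small subunit, had 99.9, 124 and 129.9 CPM in the masses against 589.8, 435 and 289 CPM in the lymphomas (log2 fold change -1.9 ± 0.22, adjusted p = 5.75e-05). Ncl, which encodes nucleolin, had 719.9, 1233 and 1114 CPM in the masses against 1659, 1886 and 1519 CPM in the lymphomas (log2 fold change -0.72 ± 0.18, adjusted p = 0.00562). None of the 3 genes overlapped between groups. Bop1 and Ubtf were not called. Relative to control thymus, 16 of the 29 were higher and 3 lower in the splenomegaly masses, and 27 were higher and 1 lower in the S62A lymphomas. The same controls stand in both comparisons, in which 22.9% and 26.3% of all genes were higher and lower in the splenomegaly masses and 21.9% and 22.2% in the S62A lymphomas.

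The promoters of Nop2 and Tsr1 are printed because both genes fell and hold the E-box CACGTG, in capitals, which reads the same on both strands. Of the 30 listed genes 25 matched the RefSeq table, with 33 promoters, of which 8 (24.2%) held the motif, against 7.15% of all promoters.
Nop2 at chr6:125131633-125131932 on the plus strand: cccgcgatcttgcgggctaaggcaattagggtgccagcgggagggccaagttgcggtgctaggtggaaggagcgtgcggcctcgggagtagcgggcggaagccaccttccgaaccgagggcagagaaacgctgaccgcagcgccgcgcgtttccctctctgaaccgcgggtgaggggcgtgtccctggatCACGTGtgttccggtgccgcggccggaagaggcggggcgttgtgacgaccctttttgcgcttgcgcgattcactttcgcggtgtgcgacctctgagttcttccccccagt
Tsr1 at chr11:74897830-74898129 on the plus strand: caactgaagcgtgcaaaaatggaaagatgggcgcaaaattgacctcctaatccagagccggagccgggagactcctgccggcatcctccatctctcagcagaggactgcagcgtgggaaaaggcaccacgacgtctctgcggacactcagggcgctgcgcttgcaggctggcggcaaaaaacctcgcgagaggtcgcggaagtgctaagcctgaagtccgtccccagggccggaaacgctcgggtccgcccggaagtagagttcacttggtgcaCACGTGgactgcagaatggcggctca

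Nucleotide synthesis fell in 14 of 18 genes, and Tk1, a thymidine kinase, rose by 0.69; the adjusted p was 0.0652 to 0.0862 without splenomegaly mass 1 or lymphoma 1 or 2. Pfas, an enzyme of purine synthesis, had 42.6, 56.1 and 67.4 CPM in the splenomegaly masses and 136, 127 and 130.2 CPM in the lymphomas (log2 fold change -1.25 ± 0.16, adjusted p = 0.000112). Cad, which starts pyrimidine synthesis and is a textbook target of MYC, had 94.1, 97.1 and 115 CPM in the masses against 241, 172 and 161 CPM in the lymphomas (log2 fold change -0.91 ± 0.20, adjusted p = 0.00284). Amino acid and one-carbon metabolism divided, with 2 of 20 genes higher, 4 lower and 14 not called; 7 were lower without lymphoma 1 and 4 were higher without lymphoma 3. Shmt1 and Slc7a1 fell by 1.18 and 1.0, and Slc3a2, the shared chain of amino acid exchangers, rose by 1.07. Odc1, the enzyme of polyamine synthesis, overlapped, with 77.9, 72.8 and 86.6 CPM in the masses against 26.3, 77.8 and 65.3 CPM in the lymphomas (log2 fold change 0.49 ± 0.29, adjusted p = 0.178); without lymphoma 2 it was higher (log2 fold change 0.79, adjusted p = 0.0492). Of 18 genes of glycolysis and lactate, 4 rose and 5 fell, with 3 falling without splenomegaly mass 2 or lymphoma 1 and 8 without lymphoma 3. The largest falls with reads enough to judge were Slc16a1, a lactate carrier, with 59, 64.2 and 73.6 CPM in the masses against 510.5, 422 and 280.1 CPM in the lymphomas (log2 fold change -2.62 ± 0.22, adjusted p = 6.40e-06), and Ldha, by 0.50, whereas Pfkp rose by 1.1. Gapdh had under 2 CPM in every library, has many near-identical pseudogenes and is uncertain; the adjusted p was 0.0694 to 0.108 without splenomegaly mass 1 or 2 or lymphoma 1. Of 11 genes of iron handling 2 rose, 4 without lymphoma 2, and 3 fell, Tfrc among them. Tfrc, which brings iron into dividing cells, had 74.3, 119 and 115 CPM in the splenomegaly masses and 1319.9, 1144 and 2573 CPM in the lymphomas, and all 3 lymphomas were far higher (log2 fold change -4.03 ± 0.39, adjusted p = 1.72e-05).

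Genes of cell division fell with few exceptions. Of 19 genes of DNA replication 17 fell and none rose, with a median of -0.84; Mcm2, a subunit of the replicative helicase, had 131, 151 and 155 CPM in the splenomegaly masses and 288, 438 and 519 CPM in the lymphomas (log2 fold change -1.51 ± 0.20, adjusted p = 0.000126). Pcna fell by 0.81. Of 18 genes of mitosis 14 fell and none rose, with a median of -0.86. Ccnb1, the cyclin that starts mitosis, had 37.8, 40.8 and 44.6 CPM in the masses against 261, 298 and 306 CPM in the lymphomas (log2 fold change -2.81 ± 0.14, adjusted p = 3.79e-07). Mki67, a common marker of cycling cells, overlapped: it had 267, 567 and 557 CPM in the masses against 527, 755 and 838 CPM in the lymphomas (log2 fold change -0.61 ± 0.26, adjusted p = 0.0661), with splenomegaly mass 1 the lowest of the 6; without splenomegaly mass 2 or lymphoma 1 the adjusted p was 0.0474 and 0.0303. Relative to control thymus, 16 of the 18 mitosis genes were lower in the splenomegaly masses (26.3% of all genes), and 3 were higher and 2 lower in the S62A lymphomas (21.9% and 22.2% of all genes).

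Among 16 targets of p53 and inhibitors of cyclin-dependent kinases, 4 fell, Pmaip1 rose and 11 were not called. Cdkn1a, the inhibitor p21, had 47, 37.2 and 36.1 CPM in the splenomegaly masses and 466, 176 and 192 CPM in the lymphomas (log2 fold change -2.79 ± 0.39, adjusted p = 0.000176). Trp53 fell by 0.82, and Cdkn2a, which encodes ARF and p16, overlapped at 29, 21.7 and 22.6 CPM in the masses against 7.25, 24 and 53.9 CPM in the lymphomas (log2 fold change -0.22 ± 0.54, adjusted p = 0.755). Pmaip1, the death gene Noxa, had 70.2, 49.9 and 71.8 CPM in the masses against 8.91, 18.2 and 8.07 CPM in the lymphomas (log2 fold change 2.45 ± 0.36, adjusted p = 0.00024). In the BCL2 family 5 of 11 measured genes rose, 3 without splenomegaly mass 1, and Bik fell. The survival genes Bcl2 and Mcl1 rose: Bcl2 had 63.3, 83.1 and 57.5 CPM in the masses against 17.1, 29.6 and 10.1 CPM in the lymphomas (log2 fold change 1.84 ± 0.39, adjusted p = 0.00217), and Mcl1 rose by 0.87. Bmf, which promotes death, rose by 1.68, and Bcl2l11, which encodes BIM, overlapped at 107, 85.9 and 91.8 CPM in the masses against 44.4, 104 and 19.6 CPM in the lymphomas (log2 fold change 0.76 ± 0.44, adjusted p = 0.158); without lymphoma 2 it was higher (log2 fold change 1.56, adjusted p = 0.00255). Of 12 immediate early genes 5 rose and Egr1 fell (the adjusted p was 0.0577 to 0.104 without splenomegaly mass 1, 2 or 3 or lymphoma 1 or 2 for Egr1), with Egr2 up by 2.72 and Jun by 2.19.

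Of 12 Notch receptors and targets, 8 rose and none fell, with a median of 1.62. Summed levels were 288 to 359 CPM in the splenomegaly masses and 121 to 164 CPM in the lymphomas, both below the 468 to 627 CPM of control thymus. Relative to control thymus, 1 of the 12 was higher and 4 lower in the splenomegaly masses (22.9% and 26.3% of all genes). In the S62A lymphomas none was higher and 9 were lower (21.9% and 22.2% of all genes). Notch1, the receptor that starts the T cell programme, had 61.8, 77.3 and 81.1 CPM in the splenomegaly masses and 10.2, 11.1 and 6.0 CPM in the lymphomas (log2 fold change 3.01 ± 0.23, adjusted p = 4.63e-06). Dtx1, a target in T cells and in marginal zone B cells, had 27.9, 28.6 and 33.2 CPM in the masses against 0.255, 0.287 and 0.133 CPM in the lymphomas (log2 fold change 7.01 ± 0.82, adjusted p = 5.42e-05). Hes1 rose by 1.94, and Notch2, the receptor of marginal zone B cells, had 157, 117 and 87.3 CPM in the masses against 111, 68.3 and 57.9 CPM in the lymphomas, with overlap (log2 fold change 0.61 ± 0.25, adjusted p = 0.0565). It was called higher with all libraries under 5 alternatives, among them DESeq2, with an adjusted p of 0.0223 to 0.0472, and without splenomegaly mass 3 or lymphoma 1, with an adjusted p of 0.0168 and 0.00576.

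Feedback targets of the Wnt pathway, in which beta-catenin and TCF factors switch on genes that damp the signal, showed the lowest median of the 42 lists. Of 12 measured, 11 fell and Rnf43 rose, with a median of -5.73 and summed levels of 524 to 622 CPM in the splenomegaly masses, 2624 to 3549 CPM in the S62A lymphomas and 635 to 661 CPM in control thymus. The list also holds Ctnnb1, the gene of beta-catenin itself, which fell and is not a feedback target. The members with values below make up only a small part of the summed level in the splenomegaly masses. Axin2, a scaffold of the complex that destroys beta-catenin, had 9.39, 9.78 and 10.7 CPM in the masses against 422, 288 and 223 CPM in the lymphomas (log2 fold change -4.96 ± 0.24, adjusted p = 3.45e-07). Nkd1, an inhibitor of the pathway, had 2.44, 0.841 and 1.4 CPM in the masses against 609, 479.99 and 616 CPM in the lymphomas (log2 fold change -8.42 ± 0.43, adjusted p = 4.34e-07). Notum, an enzyme that inactivates Wnt proteins, had 0.265, 0.421 and 0.421 CPM in the masses against 180.3, 104 and 101 CPM in the lymphomas (log2 fold change -8.47 ± 0.65, adjusted p = 4.53e-06). For all 3 genes the splenomegaly masses stood beneath every lymphoma. Rnf43, which removes Wnt receptors, had 15, 16 and 19.4 CPM in the masses against 4.96, 1.15 and 1.07 CPM in the lymphomas (log2 fold change 2.8 ± 0.60, adjusted p = 0.00248). Wif1, a secreted inhibitor, had 0, 0 and 0.0702 CPM in the masses against 78.7, 123 and 369 CPM in the lymphomas; with 1 read over the 3 splenomegaly masses, the lymphomas were higher by a ratio of 8096 (95% interval 1453 to 319814). The ratio was 4242 without lymphoma 3 and 4515 without splenomegaly mass 1, and without mass 3, which holds the read, Wif1 was at least 1796-fold lower in the masses.

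Several genes of the lymphomas were without reads in the splenomegaly masses. Sim2 (chr16:94085505-94348638), a developmental transcription factor, had no read in any splenomegaly mass and 56.9, 114 and 837 CPM in the lymphomas, so it was at least 4784-fold lower against a floor of 3 reads over the group, and at least 1191-fold without lymphoma 3. By the same floor Mixl1, a mesendoderm factor, with 157, 63 and 23.7 CPM in the lymphomas, was at least 1175-fold lower, and at least 605-fold without lymphoma 1. Frem2, Kcnn2, Crhbp, Elavl4, Acot5, Cwh43 and Egfem1 were at least 846, 629, 593, 543, 532, 362 and 325-fold lower. The bound was 276 for Crhbp and 68.8 for Egfem1 without lymphoma 1, and 432 for Frem2 and 185 for Cwh43 without lymphoma 3. By depth alone, each bound against 0 reads is 1.79 times lower without splenomegaly mass 1 and 1.5 times lower without mass 3. Barx1, a homeobox gene, had 0.0531, 0 and 0 CPM in the splenomegaly masses, against 241, 134 and 497 CPM in the lymphomas, a ratio of 12526 (95% interval 2248 to 494786), and 8138 without lymphoma 3. Shisa6 stood in a ratio of 4594 (95% interval 1271 to 37941) in the same direction, and of 2973 without lymphoma 1. Without splenomegaly mass 1, which holds the reads of both genes, Barx1 was at least 2329-fold and Shisa6 at least 1708-fold lower. Intervals and floors cover counting error only. Of 13 developmental and imprinted genes, listed because earlier results of these libraries placed them in the lymphomas, 9 fell and Meis1 rose. Prox1, a homeobox factor, had 2.55, 0.526 and 0.702 CPM in the masses against 251, 90.7 and 126 CPM in the lymphomas (log2 fold change -6.83 ± 0.61, adjusted p = 1.02e-05). The imprinted gene Peg10 had 0.371, 0.315 and 0 CPM in the masses against 98.9, 108 and 0.80 CPM in the lymphomas, with lymphoma 3 far below the others (log2 fold change -8.17 ± 1.52, adjusted p = 0.00102). In the T58A lymphomas Sim2 was at 532 ± 516 CPM, Mixl1 at 105 ± 81.1 CPM and Barx1 at 152 ± 105 CPM.

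The largest rises by the naming rule outside the genes described above were Chst3, Ccr6, Serpina10, Cacna1h and Timd2. Chst3 (chr10:59644276-59682008), a sulphotransferase of chondroitin, had 99.5, 156 and 121 CPM in the splenomegaly masses and 0.445, 0.575 and 0.80 CPM in the lymphomas (log2 fold change 7.67 ± 0.76, adjusted p = 2.03e-05). Ccr6, a chemokine receptor of B cells and some T cells, had 20.7, 30.2 and 19.9 CPM in the masses against 0, 0.359 and 0 CPM in the lymphomas (log2 fold change 7.6 ± 1.21, adjusted p = 0.000372). Cacna1h, a calcium channel, had 88, 108 and 224 CPM in the masses against 0.573, 0.862 and 1.2 CPM in the lymphomas (log2 fold change 7.31 ± 0.85, adjusted p = 5.09e-05). Serpina10 and Timd2 rose by 7.39 and 7.24. The naming rule admits only genes whose libraries do not overlap between groups, so the lack of overlap here is not a separate result.

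Libraries of a group also differed among themselves. Among genes with a mean of at least 20 CPM, the median range of log2(CPM + 1) over the 3 libraries was 0.35 in the splenomegaly masses, with 24 of 8259 genes spanning 3 or more, and 0.46 in the lymphomas, with 137 of 8091. Besides Xist, Ddx3y and Eif2s3y, the widest in the splenomegaly masses were Rpl34, a ribosomal protein gene with 184, 6.62 and 158 CPM, its pseudogene Rpl34-ps1 with 181, 5.26 and 156 CPM, and Hbb-bt. Without splenomegaly mass 2, Rpl34 was lower in the splenomegaly masses (log2 fold change -0.89, adjusted p = 0.0126), against log2 fold change -1.44 ± 0.74, adjusted p = 0.12 with all. Limma on FPKM called Rpl34 lower with all libraries kept, at an adjusted p of 0.0496 and 0.0479. Rpl34 and Rpl34-ps1 are near-identical and their reads cannot be told apart. In the lymphomas the widest were Sox14, a developmental factor with 167, 5.39 and 0 CPM, Il2ra, and Tnfsf15, a cytokine with 1.15, 14.2 and 166 CPM. Sox14 was high in lymphoma 1, and Il2ra and Tnfsf15 in lymphoma 3. Sox14 had no read in the splenomegaly masses and was at least 859-fold lower there by the floor of 3 reads, at least 36.8-fold without lymphoma 1 and at least 1294-fold without lymphoma 3, which had none either (adjusted p = 0.036). Tnfsf15 fell too (log2 fold change -3.18 ± 1.23, adjusted p = 0.0465). Both calls depended on single libraries and on the method. For Sox14 the adjusted p was 0.0729 to 0.0894 without splenomegaly mass 1, 2 or 3 or lymphoma 1. With all libraries kept, that of Sox14 was 0.0527 and 0.0965 with limma on FPKM and 0.0742 with the term for Xist above Ddx3y. For Tnfsf15 the adjusted p was 0.0943 to 0.861 without splenomegaly mass 1, 2 or 3 or lymphoma 3. With all libraries kept, the alternatives that lost the Tnfsf15 call gave 0.0509 to 0.433. Among them were limma on FPKM and the fit to the 6 libraries alone.

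**Figure D4:**
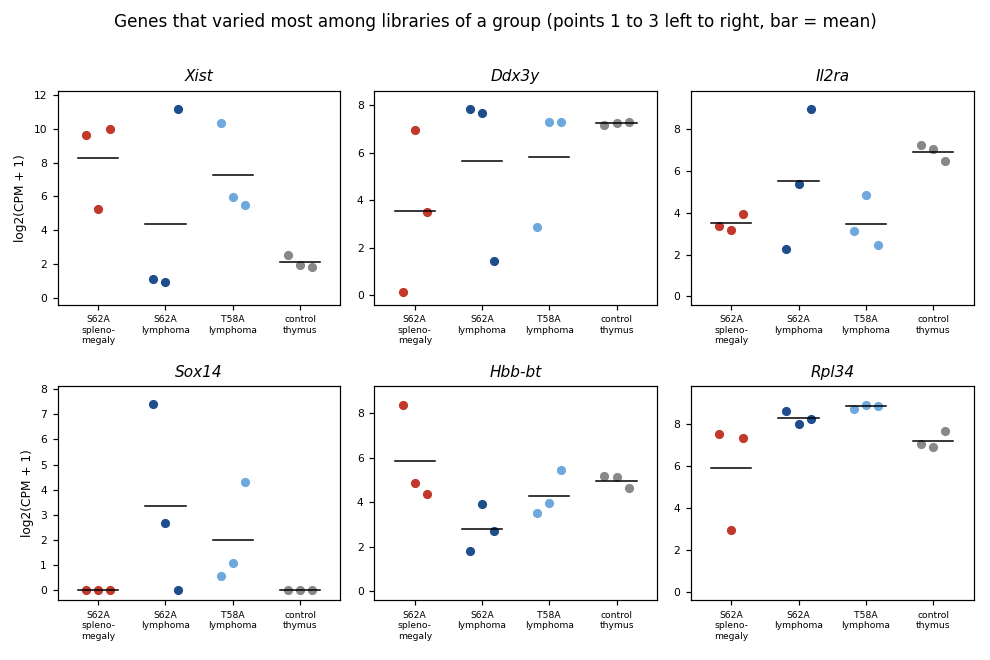
Expression as log2(CPM + 1) (vertical axis) of 6 genes that varied most among the libraries of a group, 1 point per library in the order 1 to 3 and a bar at the mean, in splenomegaly masses, S62A lymphomas, T58A lymphomas and control thymus from left to right. Splenomegaly mass 2 is low for Xist and Rpl34 and high for Ddx3y, and S62A lymphoma 3 is high for Xist and Il2ra.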

How the data were processed

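Poly(A) RNA of mouse thymic tissue was sequenced in 12 libraries, 3 in each of 4 groups taken from the titles, with Trizol extraction and a kit that keeps strand, per the labels' protocols. The authors deposited unnormalized counts of reads, with 1 row per RefSeq transcript for each library. FPKM, which also divides by transcript length, was deposited by the authors beside them and served for levels per length and for 2 alternatives. The submitters' processing notes name mm9, DESeq2, Bowtie 1.0.0 and bcl2fastq 2.20.0.422. The counting program, its use of strand and its rule for reads with several matches are not stated in the labels, so near-identical copies and antisense neighbours are uncertain. Positions are printed from 1, with file starts taken as counted from 0.

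Of 36141 transcripts of 24478 symbols, the transcript with the most reads over the 12 libraries stood for each symbol. In R 4.3.3 with edgeR 4.0.16, 15606 genes passed filterByExpr with a minimum count of 10. Libraries were scaled by TMM, a quasi-likelihood model of group was fitted to all 12 libraries, and p-values were adjusted by Benjamini-Hochberg over all genes tested, with a threshold of 0.05. CPM uses the TMM-scaled depth. The fit was tested on simulated data in which few genes changed, evenly up and down. That test does not cover scaling when 54.3% of genes differ, as here. Alternatives used DESeq2 1.42.0 and limma 3.58.1. A group at 0 reads took a floor of 3 reads over its 3 libraries, and a group with 1 to 3 reads a ratio with an exact 95% interval; no molecular identifiers mark copies made by PCR, so both cover counting error only.

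Members and the 42 lists (649 symbols, 632 measured) were chosen with earlier results of these data known. The rule for named genes took the 12 largest rises and 12 largest falls among called genes with at least 20 CPM in either group and no overlap, leaving out predicted genes and receptor segments. It added up to 4 risen and 4 fallen members a list by adjusted p, set markers of each list, and the genes that varied most within a group. Some of these are given only within the count of their list. Other names were chosen after their values were seen, such as list members that were not called. Some genes of the lists are counted but not reported singly here.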

Additional observations from a re-analysis of the deposited data

How the results depend on the processing

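The 4002 genes higher and 4470 lower in the splenomegaly masses stayed within 1.5 times their number under each of the 16 alternatives run, and no gene of either count was called in the opposite direction under any of them. The lowest counts among settings that kept all 6 libraries came from a fit to those libraries alone, with 3495 genes higher and 3200 lower; 85.3% and 71.1% of the genes called before were among them. DESeq2 called 4539 higher and 4310 lower. Size factors of DESeq2's kind in edgeR gave 4267 higher and 4019 lower, so the split of higher against lower calls turned round, by under 10 percentage points. The split also turned round under DESeq2 and in the fit to the 6 libraries alone. It did so too with no filter on low counts (4114 higher, 4050 lower) and with reads summed over transcripts (4155 and 4129). Without splenomegaly mass 3 the counts were 3850 higher and 3715 lower. Leaving out 1 library gave 3604 to 3921 higher and 3651 to 4302 lower. The term for Xist above Ddx3y was chosen after seeing the data. Of 1344 counts for lists under the alternatives, 77 moved by over 1.5 times, most of them counts under 10. Of 3365 values for 211 named genes, 61 lost the call, 22 gained it and 28 changed sign, none of a called gene. DESeq2 gave no adjusted p for Gzmb. The fit to the 6 libraries alone lost the calls of Bcl6, Egr1, Il2ra, Ldha, Mmp9, Ncl, Tk1 and Tnfsf15. The term for Xist above Ddx3y lost those of Egr1, Gapdh, Mmp9, Pf4, Sox14 and Tnfsf15. Both limma fits lost those of Il2ra, Sox14 and Tnfsf15, and limma on log2(FPKM + 1) also that of Pf4. The log2 fold changes that changed sign came from 15 genes whose libraries overlapped between groups, and the cause was not tested. On log2(FPKM + 1) with limma they were Cd3e 0.079, Cdkn2a 0.16, Prf1 0.037, Xist 1.92. On log2(FPKM + 0.1) they were Cd3e 0.092, Cdkn2a 0.19, Prf1 0.079, Xist 3.58. With the term for Xist above Ddx3y they were Cd3e 0.17, Eif2s3y 0.25, Klf1 0.64, Xist 0.90. Over the fits without 1 library the values ran as follows: Adgre1 -0.43 to 1.36, Cd3e -0.90 to 0.13, Cdkn2a -0.68 to 0.64, Col1a1 -1.04 to 0.32, Ern1 -0.022 to 0.81, Fcgr4 -0.13 to 2.25, Foxn1 -5.67 to 0.88, Ifit2 -0.53 to 0.28, Ikzf3 -0.043 to 0.95, Pou2af1 -0.16 to 0.91, Prf1 -0.77 to 0.67, Vpreb1 -1.31 to 0.23, Xist -0.89 to 9.18. A library left out leaves 2 in its group, and the spread is then pooled over the 4 groups. No paired analysis was possible because the labels give no replicate numbers and the codes in the titles are not shared between groups. Depth limits genes at a few reads, such as Ptcra, Vpreb1 and Foxn1, for which a difference was not detectable.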

Other observations

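Genes outside the 42 lists were counted in families by the shared start of their symbols, after the values had been seen, so the counts are a description without a test. Of 125 families with at least 12 measured symbols, 20 had at least 60% of their symbols called in 1 direction. Toll-like receptor genes, whose products sense microbial molecules, rose in 10 of 12 cases (83.3%, against 25.6% of all genes), and Tlr2 and Tlr8 were not called. Tlr2 was called higher with DESeq2 (log2 fold change 1.24, adjusted p = 0.0309) and without splenomegaly mass 3 (adjusted p = 0.0453). Genes of the Ifi family, which interferon induces, rose in 14 of 15 cases, and the Tnfrsf family of cytokine receptors in 10 of 16. Nucleoporin genes, which build the nuclear pore, fell in 16 of 20 cases (80.0%, against 28.6% of all genes), with a median log2 fold change of -0.64. Host genes of small nucleolar RNAs (Snhg) fell in 12 of 16 cases with a median of -1.41, general transcription factor genes (Gtf) in 16 of 22, centrosomal protein genes (Cep) in 25 of 36 and Mediator subunit genes (Med) in 20 of 30.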
